A study of Mus musculus with 22 samples.

Results

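Fibroblasts from mouse embryos (MEFs, a primary culture) in which a mutant oncogene had been switched on were compared with control MEFs on Affymetrix whole-genome expression arrays. The comparison used 10 of the 22 arrays of the series and covered 18193 genes, each read by the brightest of the probe sets that belong to that gene alone. The 5 oncogene arrays (replicates 1, 3, 4, 5 and 6) came from MEFs that carried an inducible mutant allele of the oncogene and were infected with an adenovirus for Cre recombinase, which activates the allele. The 5 control arrays (replicates 1 to 5) came from wild type MEFs infected with an adenovirus for GFP. RNA was taken 7 days after infection in both groups. The series' design text counts 6 oncogene samples, of which 5 were analysed here. Cre and GFP virus differed together with the oncogene, so the part of the virus in any difference between these groups cannot be told apart from that of the oncogene. Another 12 arrays served only as a side comparison in which all cells had received Cre: 7 double arrays (oncogene active and Wt1 deleted) and 5 Wt1-null arrays (Wt1f/f MEFs, oncogene not activated). The share of cells that recombined is not given in the sources used here, and the labels do not state if each replicate had its own embryo or culture; the p-values therefore describe only how far these arrays spread, which may be technical.

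As background, growth factor signals pass through the mitogen-activated protein kinase (MAPK) cascade to the nucleus, where they switch on transcription factors of the ETS, EGR and AP-1 families and, with them, inhibitors of the cascade itself: the Sprouty and Spred proteins, the dual-specificity phosphatases and Errfi1, which blocks the EGF receptor. A separate programme answers a shortage of amino acids or stress in the endoplasmic reticulum. In it the transcription factor ATF4 raises genes that make and import amino acids, charge transfer RNAs and limit the response, such as the pseudokinase Trib3.

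The cells carried the fibroblast profile that the label names. All 13 fibroblast markers lay above background in each of the 10 arrays, with vimentin (Vim) at 14.83 in oncogene and 14.82 in control arrays and the collagen chain Col1a2 at 14.75 in both (group means of RMA log2 levels). Background was taken as 3.65 to 5.06, the range of 3 Y-linked genes in the 9 arrays high in Xist, an RNA made from inactive X chromosomes. The defining markers Cdh1 and Esrp1 of epithelium, Pecam1, Emcn and Vwf of endothelium, and Ptprc, Itgam and Hba-a1 of blood lay at background in all 10 arrays. Other markers of these lists did not: 8 of 15 endothelial and 9 of 14 macrophage and blood markers lay above background in all 10 arrays. Kdr averaged 7.18 in oncogene and 7.07 in control arrays, Tek 6.80 in oncogene and 5.51 in control arrays (limma, adjusted p = 0.11) and Csf1r 7.25 in oncogene and 7.37 in control arrays. Of the 20 epithelial and keratin markers 14 lay above background in all 10 arrays, among them Epcam, with means of 8.37 in oncogene and 8.36 in control arrays. Summed over these 20 markers, the level was 10.76 to 11.68 in oncogene and 11.33 to 12.44 in control arrays (log2 of the sum), and over the 15 endothelial markers 10.54 to 10.88 in oncogene and 10.68 to 10.86 in control arrays. Xist was high in 0 of 5 oncogene and 2 of 5 control arrays. The mean correlation with the other arrays was lowest for double replicate 4 (0.931) and oncogene replicate 4 (0.958), and Wt1-null replicate 2 was nearly identical to double replicate 2 (r = 0.998), as were Wt1-null replicates 3 and 4 to each other (r = 0.998). Wt1 itself lay at background and checked no label.

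Across all genes the oncogene arrays showed more called rises than falls. At an adjusted p below 0.05 (limma, Benjamini-Hochberg over all genes, a gene then being termed called), 371 of 18193 genes differed, a share of 2.04%. Of these 240 were higher (1.32%) and 131 lower (0.72%) in oncogene arrays. With each array centred on its median the split was 183 higher and 164 lower, and without oncogene replicate 4 and double replicate 4 it was 331 and 327, so the excess of rises depends on the setting. The median log2 difference was 1.12 among the genes called higher and -0.91 among those called lower, against -0.03 over all genes. Differences of at least 2 log2 units were found in 33 of the genes called higher and 8 of those called lower. For 1081 genes the oncogene arrays lay all above or all below the control arrays (5.94%; 569 higher, 3.13%, and 512 lower, 2.81%), and 326 of the 371 called genes were among them.

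The count of called genes depends on single arrays. Leaving out control replicate 2, 3 or 4 gave 145, 139 or 166 called genes, and leaving out oncogene replicate 3, 5 or 6 gave 223, 177 or 213. The count was 617 and 683 without double replicates 1 and 4, which enter through the common estimate of spread. A core of 119 genes, 75 higher and 44 lower, was called in each of the 22 fits that left out 1 array. Every one of the 371 kept the sign of its difference in all alternatives that gave each gene 1 value. Of 232 called genes with a further probe set above background, 175 had the same sign on every such probe set and 73 had another one that was also called.

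**Figure D1:**
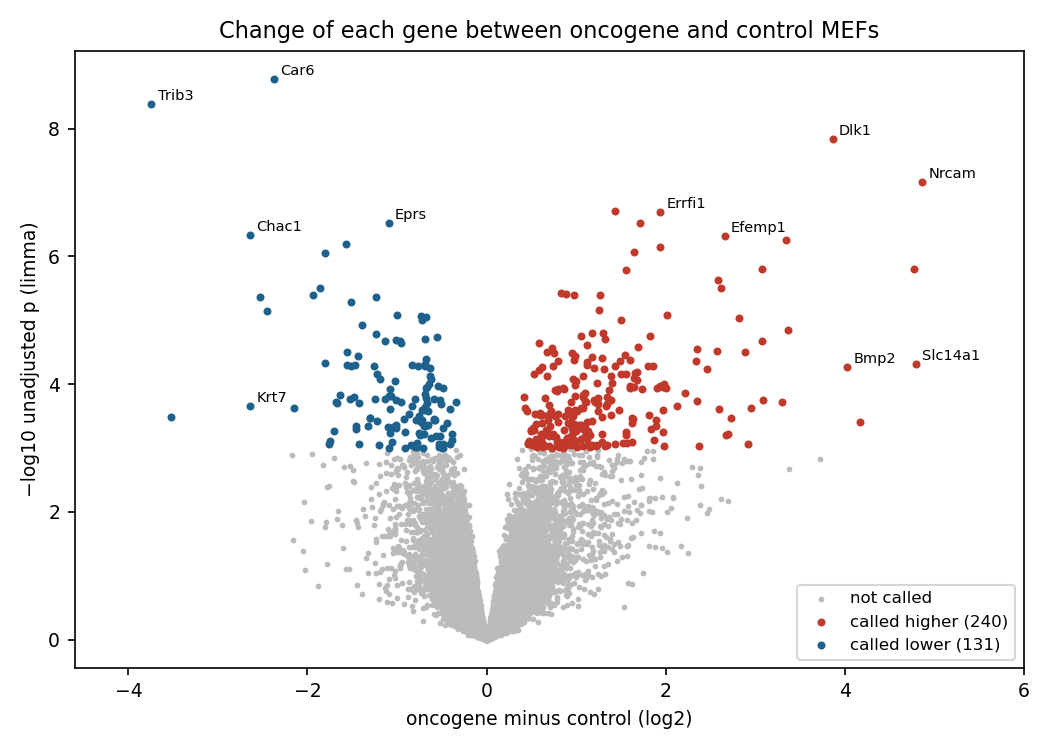
Log2 difference between oncogene and control arrays (horizontal) against −log10 of the unadjusted limma p (vertical) for all 18193 genes. The 240 genes called higher are red and the 131 called lower blue; Nrcam lies farthest to the right at 4.87 and Trib3 farthest to the left at -3.74.

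Feedback inhibitors of the MAPK cascade were higher in oncogene MEFs. All 13 measured members lay above the control, 5 were called (38.5%, against 2.04% of all genes), and the median log2 difference was 0.91, against -0.03 over all genes. Spry2, a Sprouty inhibitor of receptor tyrosine kinase signalling, had levels of 10.60, 10.32, 10.09, 10.30 and 9.87 in oncogene arrays, against 8.82, 8.68, 8.77, 8.81 and 8.95 in control arrays (here and below in order of replicate number). The lowest oncogene array lay 0.92 above the highest control array. The difference was 1.43 ± 0.19 (SE; adjusted p = 0.000617). Errfi1, the inhibitor of the EGF receptor, averaged 12.75 ± 0.30 in oncogene and 10.81 ± 0.23 in control arrays (SD, n = 5 each), a difference of 1.94 ± 0.25 (SE; adjusted p = 0.000617), which a second probe set gave as 1.57. For Spry2 a second probe set gave only 0.14, so the size of that rise rests on the brighter one.

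Dusp6, the phosphatase that acts on ERK, spread more: it read 10.67, 10.95, 10.50, 10.01 and 10.26 in oncogene arrays, against 8.97, 8.96, 8.59, 7.93 and 7.29 in control arrays. The groups did not overlap, and the difference was 2.13 ± 0.48 (SE; adjusted p = 0.022). Spry4 and Spred2 completed the called members with differences of 1.31 and 1.24. Further probe sets gave 0.43 to 2.25 for Spry4 and -0.10 to 0.29 for Spred2, so the rise of Spred2 was seen on 1 of 5 probe sets. The other 8 members, among them Spred1 (0.89), Dusp4 (1.85) and Dusp1 (0.36), did not pass. The called count was 3 without control replicate 3, control replicate 4 or oncogene replicate 3, and the call of Spred2 was lost without control replicate 4 (adjusted p = 0.065) and 3 other arrays.

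Transcription factors downstream of the cascade were mixed. Of 23 measured members 16 lay above and 7 below the control, 4 were called, all higher (17.4%, against 2.04% of all genes), and the median was 0.32. Egr3, a zinc finger factor of the immediate early class, read 7.82, 9.10, 9.09, 10.33 and 9.61 in oncogene arrays, against 6.51, 6.86, 6.05, 6.60 and 5.50 in control arrays. Its difference of 2.88 ± 0.54 (SE; adjusted p = 0.00918) was the largest of the list, but a second probe set gave -0.10. The ETS factor Etv5 averaged 10.01 ± 0.54 in oncogene and 8.40 ± 0.19 in control arrays (SD, n = 5 each), a difference of 1.61 that 2 further probe sets gave as 1.45 and 0.62. The AP-1 factor Fosl1 and the ETS factor Elk3 differed by 1.12 and 0.58. The call of Fosl1 was lost without oncogene replicate 3 (adjusted p = 0.104) and 11 other arrays. The classical early genes Fos (0.97), Egr1 (0.73), Jun (0.23), Junb (-0.13) and Myc (0.33) did not pass. Among 17 other reported MAPK output genes 14 lay above the control (median 0.55). Of the 17, 2 were called, both higher (11.8%, against 1.32% of all genes called higher). They were the chromatin protein Hmga2 (1.18, and 0.85 to 1.05 on 3 further probe sets) and Phlda1 (1.11, lost without oncogene replicate 5, adjusted p = 0.0585).

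Secreted growth factors and their antagonists gave several of the largest rises, while most genes of their lists were not called. Bmp2, a bone morphogenetic protein, had levels of 10.34, 9.16, 12.43, 11.24 and 10.81 in oncogene arrays, against 6.63, 6.01, 6.86, 6.54 and 7.81 in control arrays. The lowest oncogene array lay 1.35 above the highest control array, and the difference was 4.02 ± 0.79 (SE; adjusted p = 0.0107), or 16.3-fold. Of 17 BMP ligands and antagonists only Bmp2 and Gdf10 (1.94) were called (11.8%, against 1.32% of all genes called higher). The median of the list was 0.11. Dkk2, a modulator of Wnt signalling, averaged 11.98 ± 0.61 in oncogene and 9.02 ± 0.86 in control arrays (SD, n = 5 each), a difference of 2.95, and the Wnt-inactivating enzyme Notum differed by 1.15. The calls of Dkk2 and Notum were lost without control replicate 2 (adjusted p = 0.0788 and 0.136) and 5 and 15 other arrays. The list of 12 Wnt antagonists had 16.7% called, against 1.32% of all genes called higher, and a median of 0.11.

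Dlk1, a membrane-bound and shed inhibitor of adipocyte differentiation from an imprinted locus, was well separated between the groups. Its levels were 11.74, 12.69, 11.89, 11.58 and 11.99 in oncogene arrays, against 8.81, 7.76, 7.78, 7.95 and 8.26 in control arrays, a difference of 3.87 ± 0.43 (SE; adjusted p = 8.92e-05). A dimmer probe set gave 0.40, so the size is that of the brighter one. Dlk1 was the only called gene among 18 imprinted growth genes, whose median was 0.27. The secreted proteins Angptl7 and Efemp1, a fibulin of the matrix, rose by 3.08 and 2.66, with means of 11.61 and 13.01 in oncogene arrays and 8.53 and 10.35 in control arrays. No gene was called among 9 EGF receptor ligands (median 0.54), 15 FGF, HGF and VEGF ligands (0.03) or 24 chemokines and interleukins (0.08). In the last list Csf1, the macrophage growth factor, read 12.37 ± 0.71 in oncogene and 11.21 ± 0.19 in control arrays (SD, n = 5 each; adjusted p = 0.0642) with arrays that did not overlap.

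**Figure D2:**
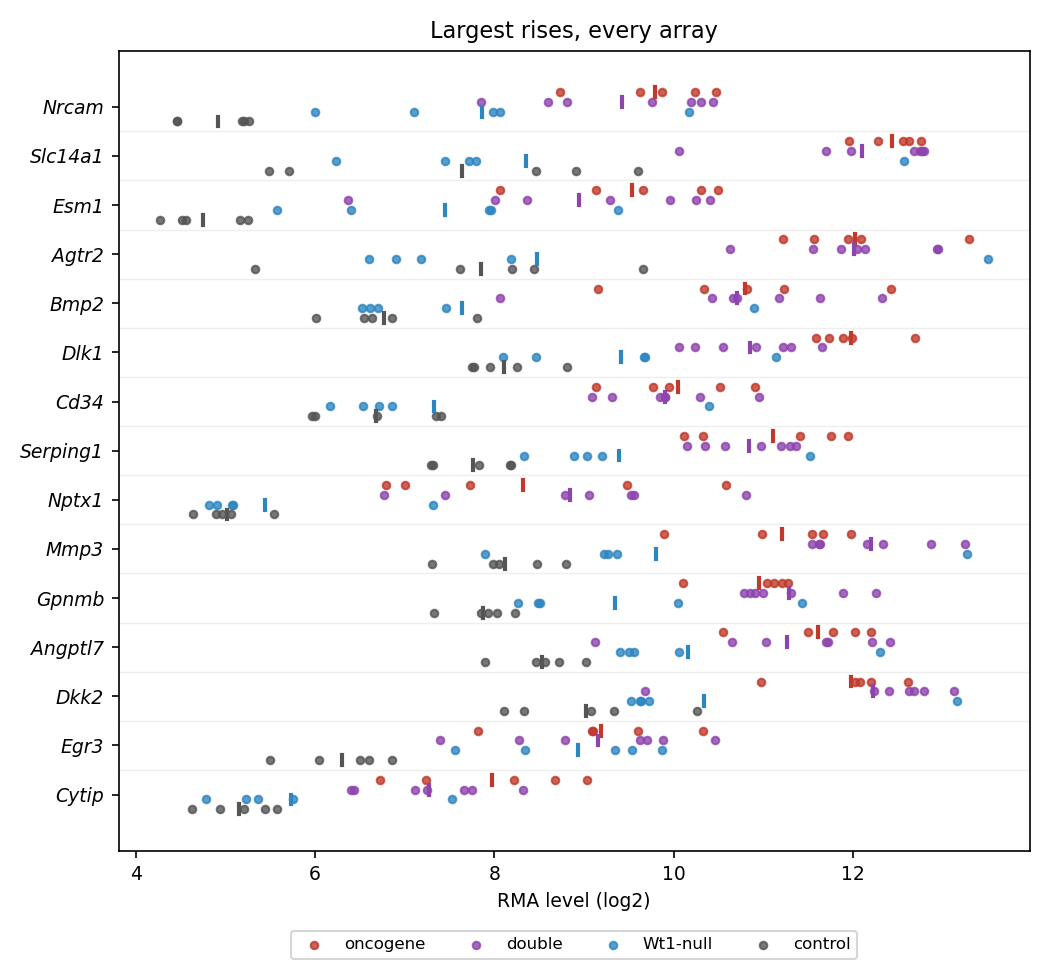
RMA log2 level (horizontal) of the 15 largest rises (rows) in every oncogene, double, Wt1-null and control array; each point is 1 array and each bar a group mean. Oncogene points lie to the right of all control points in each row, while the position of the Wt1-null points differs from gene to gene.

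Among the 15 largest rises were single receptors and transporters of the cell surface. Slc14a1, a urea transporter, was uniform in oncogene arrays (12.75, 12.56, 12.63, 11.96 and 12.28) and scattered in control arrays (5.49, 5.71, 8.91, 8.47 and 9.60). The lowest oncogene array was still 2.36 above the highest control array. The difference was 4.80 ± 0.94 (SE; adjusted p = 0.0105), and a second probe set gave 3.86. Agtr2, the type 2 angiotensin receptor, had the same kind of spread, with 13.30, 12.09, 11.94, 11.56 and 11.22 in oncogene arrays, against 8.20, 5.33, 8.45, 7.61 and 9.65 in control arrays. Its difference of 4.17 ± 0.99 (SE; adjusted p = 0.0298) was lost as a call without control replicate 2 (adjusted p = 0.104) and 6 other arrays. Cd34, a sialomucin of progenitor and vessel cells, and Gpnmb, a transmembrane glycoprotein, differed by 3.37 and 3.08 and were called in all left-out-array fits. For Gpnmb a second probe set gave 0.81.

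Esm1, a proteoglycan known from endothelium, averaged 9.53 ± 0.98 in oncogene and 4.75 ± 0.43 in control arrays (SD, n = 5 each), and the control mean lay at background, so its difference of 4.78 has no exact size. Of 15 endothelial markers none was called higher, 1 was called lower (Erg, -1.80), 4 were at background in both groups and the median was -0.07. Pdgfra, the PDGF receptor of mesenchymal cells, was the only called gene of 13 fibroblast markers, at 12.41 ± 0.31 in oncogene and 10.44 ± 0.99 in control arrays (SD, n = 5 each), with 1.60 on both further probe sets. Its call was lost without control replicate 2 (adjusted p = 0.0717) and 3 other arrays. In the IGF system (12 genes, median 0.61) 16.7% were called, all higher, against 1.32% of all genes called higher. The binding protein Igfbp6 rose by 0.73 and the receptor Igf1r by 1.34, the second called only in part of the fits. The call of Igf1r was lost without oncogene replicate 5 (adjusted p = 0.13) and 11 other arrays. On 4 further probe sets Igf1r rose by only 0.34, 0.69, 0.08 and 0.30. In whole-culture RNA, more cells of a type and more RNA per cell cannot be told apart.

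Single adhesion and guidance molecules were called, while most members of their lists were not. Nrcam, a cell adhesion molecule of neurons, read 10.23, 9.62, 8.73, 10.48 and 9.88 in oncogene arrays, against 5.26, 4.47, 4.46, 5.21 and 5.19 in control arrays. The control mean of 4.92 lay at background, so the difference of 4.87 ± 0.60 (SE; adjusted p = 0.000316) has no exact size. Other probe sets of Nrcam gave 2.15, 0.34 and 0.20. Summed over 19 neural and glial markers the level was 11.94 to 13.15 in oncogene and 11.35 to 12.32 in control arrays, and the mean level of the list was 6.47 to 6.63 in oncogene and 6.20 to 6.43 in control arrays, without overlap. None of these markers was called, 11 lay above background in all 10 arrays and Nefm, Snap25 and Olig2 at background, and the part of this list in the result was not tested. Among 20 neural adhesion molecules Nptx1, a secreted pentraxin of synapses, and Alcam were also called (3.30, against a control mean at background, and 1.84), and the median was 0.11. Itga6, the laminin-binding integrin chain, averaged 12.10 ± 0.33 in oncogene and 9.52 ± 0.87 in control arrays (SD, n = 5 each). Its 2 probe sets gave 2.58 and 2.63. It was the only called gene of 16 integrins (6.25%, against 1.32% of all genes called higher).

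Of 22 semaphorins, plexins and neuropilins 18 lay above the control (median 0.42). Sema5a, Sema4c and Plxna1 were called higher (2.46, 0.95 and 1.05) and the receptor Plxnc1 lower (-1.56), which made this the only list with calls in both directions. In all, 18.2% of the list were called, against 2.04% of all genes. Further probe sets gave -0.23 to 2.75 for Sema5a, 0.30 for Plxna1 and -1.51 to -0.13 for Plxnc1. Sema4c and Plxna1 lost their calls without control replicate 2 (adjusted p = 0.0923 and 0.123) and 5 and 13 other arrays. The called count of this list was 2 without control replicates 2, 3 or 4 or oncogene replicates 4 or 5. Nptx1 lost its call without oncogene replicate 3 (adjusted p = 0.0575) and 4 other arrays, and Alcam without control replicate 2 (adjusted p = 0.103) and 6 other arrays. The count of the neural adhesion list was then 1 without control replicates 2, 3 or 4 or oncogene replicate 3. None of 18 Eph receptors and ephrins was called (median 0.19).

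Of 14 matrix metalloproteinases 2 were called (14.3%), and of 15 complement genes 2 (13.3%), all higher, against 1.32% of all genes called higher. Mmp3, stromelysin, had levels of 11.98, 11.54, 11.67, 10.98 and 9.89 in oncogene arrays, against 8.80, 7.31, 8.47, 7.98 and 8.06 in control arrays. The groups did not overlap, and the difference was 3.09 ± 0.67 (SE; adjusted p = 0.0197), a call lost without control replicate 2 (adjusted p = 0.0682) and 1 other array. Mmp2, gelatinase A, rose by 1.61 and by 1.68 on a second probe set, while the median of the metalloproteinases was -0.03. Serping1, the inhibitor of the first complement protease, averaged 11.11 ± 0.84 in oncogene and 7.76 ± 0.44 in control arrays (SD, n = 5 each), a difference of 3.35. Cd55, which speeds the decay of complement convertases, differed by 2.37, a call lost without control replicate 2 (adjusted p = 0.13) and 16 other arrays. The median of the complement genes was 0.08, and that of 13 protease inhibitors 0.11.

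Genes of the ATF4 amino acid response were lower in oncogene MEFs. Of 35 measured genes of that list 32 lay below and 3 above the control, 16 were called, all lower (45.7%, against 0.72% of all genes called lower), and the median was -0.996. Trib3, the pseudokinase that restrains the response, had levels of 6.30, 7.68, 7.39, 7.15 and 6.90 in oncogene arrays, against 10.47, 10.83, 11.19, 10.85 and 10.79 in control arrays. The highest oncogene array lay 2.79 below the lowest control array, and the difference was -3.74 ± 0.39 (SE; adjusted p = 3.76e-05), with -4.24 on a second probe set. Chac1, which degrades glutathione, read 7.77, 8.72, 8.70, 8.61 and 8.09 in oncogene arrays, against 10.98, 11.08, 11.14, 10.88 and 11.05 in control arrays. Its control arrays lay within 0.27 of each other, and the difference between the groups was -2.65 ± 0.37 (SE; adjusted p = 0.000885).

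Among the enzymes of the list, asparagine synthetase (Asns) averaged 11.07 ± 0.47 in oncogene and 12.75 ± 0.19 in control arrays (SD, n = 5 each), a difference of -1.68 that a second probe set gave as -1.89. The mitochondrial folate enzymes Aldh1l2 and Mthfd2 differed by -2.53 and -1.48, the serine phosphatase Psph by -1.30, the aminotransferase Gpt2 by -1.52 and the mitochondrial carboxykinase Pck2 by -1.64. Among importers of amino acids, Slc7a5 differed by -1.47, Slc6a9 by -1.25, Slc1a4 by -1.07, Slc7a3 by -1.01 and the cystine carrier Slc7a11 by -0.76. The transcription factors Ddit3 and Atf5 and the phosphatase subunit Ppp1r15a differed by -1.56, -1.71 and -0.58. Atf4 itself read 11.62 in oncogene and 12.48 in control arrays and did not pass (-0.86, adjusted p = 0.135), nor did Slc3a2 (-0.79), Psat1 (-0.73) or Phgdh (-0.79), although their arrays did not overlap. Slc38a2, Stc2 and Slc7a1 lay above the control by 0.49, 0.20 and 0.18.

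Averaged over its 35 genes, the list stood at 9.22 to 9.68 in oncogene, 8.99 to 9.70 in double, 9.08 to 10.27 in Wt1-null and 10.32 to 10.67 in control arrays. Oncogene and control arrays thus did not overlap on this mean. The number of called members was 7 or 9 when control replicate 2 or 3 was left out, and 9 or 10 for oncogene replicate 5 or 6. Asns lost its call without control replicate 2 (adjusted p = 0.0676) and 4 other arrays, and Atf5 without control replicate 3 (adjusted p = 0.102) and 7 other arrays, whereas Trib3, Chac1, Aldh1l2, Ddit3 and Slc7a11 were called in every one of these fits. Slc7a11 was dim, however, with means of 5.11 in oncogene and 5.87 in control arrays, against a background of up to 5.06. A second probe set of Slc7a11 gave only -0.31.

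**Figure D3:**
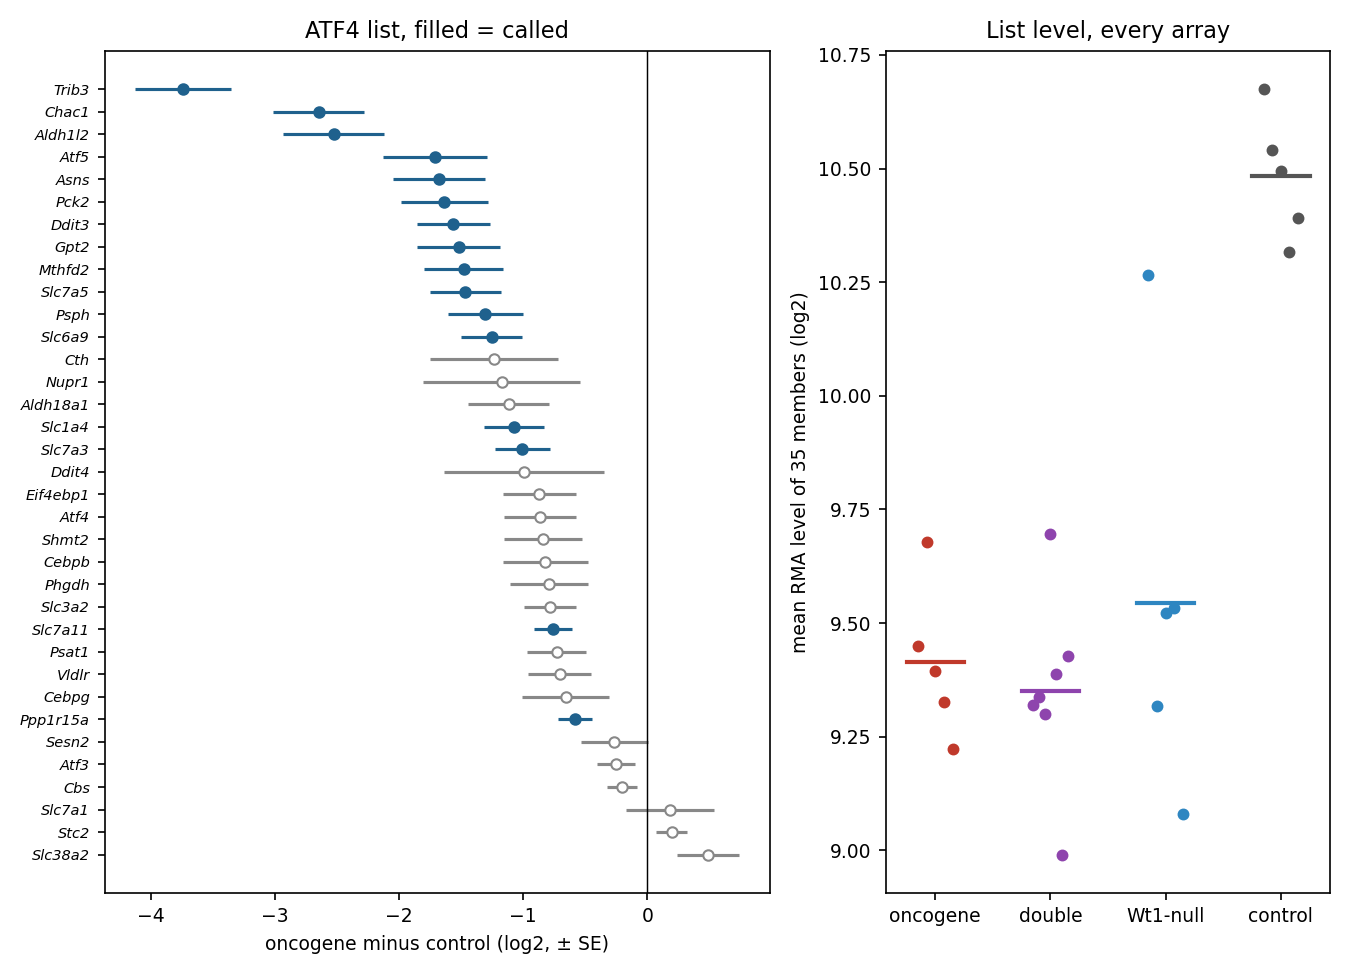
Left, log2 difference between oncogene and control arrays with its SE for each of the 35 measured ATF4 list genes (filled where called); right, mean log2 level of the list in every array, with bars at group means. The 16 filled points run from -3.74 to -0.58, and all 5 control arrays lie above all arrays of the other groups.

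The promoters of these genes were searched for TGATGNAA (N is any base), the form of the amino acid response element that ATF4 binds together with C/EBP factors. Promoters were RefSeq windows of 300 bases on mouse assembly GRCm38.p6, from 250 bases before to 50 after the annotated start, both strands were read, and 14452 of the 18193 genes had a window. The letters occurred in 468 of these genes (3.24%), in 13 of 108 genes called lower (12.04%) and in 2 of 184 called higher (1.09%). On the ATF4 list they occurred in 9 of 30 genes (30.0%), or 6 of the 13 called genes with a window (46.2%), and among the transfer RNA synthetases in 5 of 12 (41.7%). The 5 windows below, shown because they belong to called genes and hold a match, read 5′ to 3′ along the gene, and capitals mark the match on either strand. They are, in order, chr2:152344011-152344310 (minus strand; match starting at +15), chr2:119350992-119351291 (plus strand; -193), chr3:50443564-50443863 (minus strand; -66 and -47), chr14:55540016-55540315 (plus strand; -103) and chr6:7693160-7693459 (minus strand; -23).
Trib3: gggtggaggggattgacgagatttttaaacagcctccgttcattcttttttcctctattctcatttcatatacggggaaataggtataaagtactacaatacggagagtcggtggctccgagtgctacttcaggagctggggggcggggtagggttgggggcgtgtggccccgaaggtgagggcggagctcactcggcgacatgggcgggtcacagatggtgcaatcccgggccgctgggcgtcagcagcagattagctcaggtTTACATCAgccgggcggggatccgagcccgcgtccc
Chac1: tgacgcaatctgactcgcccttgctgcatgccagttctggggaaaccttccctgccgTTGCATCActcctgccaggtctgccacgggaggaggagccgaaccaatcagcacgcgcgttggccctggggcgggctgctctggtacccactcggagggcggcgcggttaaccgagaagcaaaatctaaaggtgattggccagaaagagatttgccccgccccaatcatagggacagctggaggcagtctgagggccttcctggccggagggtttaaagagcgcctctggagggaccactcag
Slc7a11: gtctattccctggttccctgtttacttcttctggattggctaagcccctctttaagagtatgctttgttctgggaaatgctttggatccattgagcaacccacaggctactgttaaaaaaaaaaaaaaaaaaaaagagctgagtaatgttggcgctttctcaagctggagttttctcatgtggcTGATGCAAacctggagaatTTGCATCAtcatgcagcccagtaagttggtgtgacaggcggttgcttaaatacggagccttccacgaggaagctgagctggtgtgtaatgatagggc
Pck2: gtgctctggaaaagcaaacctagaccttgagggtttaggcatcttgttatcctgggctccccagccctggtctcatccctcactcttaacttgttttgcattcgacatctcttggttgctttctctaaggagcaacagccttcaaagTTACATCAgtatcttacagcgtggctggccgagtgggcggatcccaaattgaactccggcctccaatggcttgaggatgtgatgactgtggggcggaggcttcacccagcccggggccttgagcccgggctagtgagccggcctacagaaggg
Asns: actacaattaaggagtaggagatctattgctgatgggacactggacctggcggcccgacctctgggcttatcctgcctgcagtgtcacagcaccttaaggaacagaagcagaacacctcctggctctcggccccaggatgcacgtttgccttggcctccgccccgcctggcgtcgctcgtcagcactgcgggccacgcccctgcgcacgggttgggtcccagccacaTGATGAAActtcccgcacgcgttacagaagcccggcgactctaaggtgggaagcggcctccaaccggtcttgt
Slc7a11 was the one of the 5 with 2 matches, in opposite orientation. A match is a run of letters and was not tested as a site. The other called-lower genes with a match were Lrrc17, Herpud1, Rab39b, Aars, Slc1a4, Jdp2, Echs1 and Echdc2, and the 2 genes called higher were Nemp1 and Tspyl3. TGANTCA, the AP-1 letters, occurred in 7.54% of all genes with a window, 8.70% of those called higher and 2.78% of those called lower. The called MAPK-list genes with a window were 4 feedback inhibitors, 2 transcription factors and 1 other output gene. None held it, and they were too few to judge. Over all members with a window it occurred in 0 of 11 feedback inhibitors, 0 of 16 transcription factors and 4 of 12 other output genes (33.3%).

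Cytosolic aminoacyl-tRNA synthetases, which load amino acids onto transfer RNAs, also lay low. Of 19 measured genes 18 lay below the control (median -0.53) and 4 were called, all lower (21.1%, against 0.72% of all genes). Eprs, the enzyme for glutamate and proline, read 10.86, 10.44, 10.57, 10.69 and 10.92 in oncogene arrays, against 11.64, 11.84, 11.81, 11.75 and 11.91 in control arrays. The arrays spanned 0.48 in the oncogene and 0.27 in the control group, and the difference was -1.09 ± 0.15 (SE; adjusted p = 0.000683), with -1.19, -1.20 and -0.28 on 3 further probe sets. Sars, Aars and Cars differed by -1.19, -1.13 and -0.92 (Aars not called without oncogene replicate 5, adjusted p = 0.058, and 2 other arrays, nor Cars without control replicate 2, 0.0865, and 5 others), while Rars differed by 0.01. Second probe sets gave -1.31 for Sars, -1.23 for Aars and -0.11 for Cars. The called count was 2 without control replicate 2, control replicate 3 or oncogene replicate 5, and 8 without double replicate 4.

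In the endoplasmic reticulum list (24 genes, median -0.15) 12.5% were called, all lower, against 0.72% of all genes. The called genes were Herpud1 (-1.23) and Derl2 (-0.68), which serve the disposal of misfolded proteins, and the folding enzyme Pdia4 (-0.66). A second probe set gave 0.39 for Derl2 and -0.03 for Pdia4, so those falls rest on 1 probe set each. The count was 5 without double replicate 4. Pdia4 lost its call without control replicate 4 (adjusted p = 0.0716) and 4 other arrays. All 20 genes of cholesterol synthesis and uptake lay below the control (median -0.64), and 1 was called, Lss. Lss is lanosterol synthase and read 10.06, 9.27, 9.68, 8.97 and 8.76 in oncogene arrays, against 10.80, 10.54, 10.58, 10.52 and 10.53 in control arrays. The difference was -1.25, with -0.14 and -0.26 on 2 further probe sets, and the call was lost without oncogene replicate 5 (adjusted p = 0.061) and 3 other arrays. Without oncogene replicate 1 the list had 5 called genes, and without double replicates 1 and 4 it had 2 and 3.

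**Figure D4:**
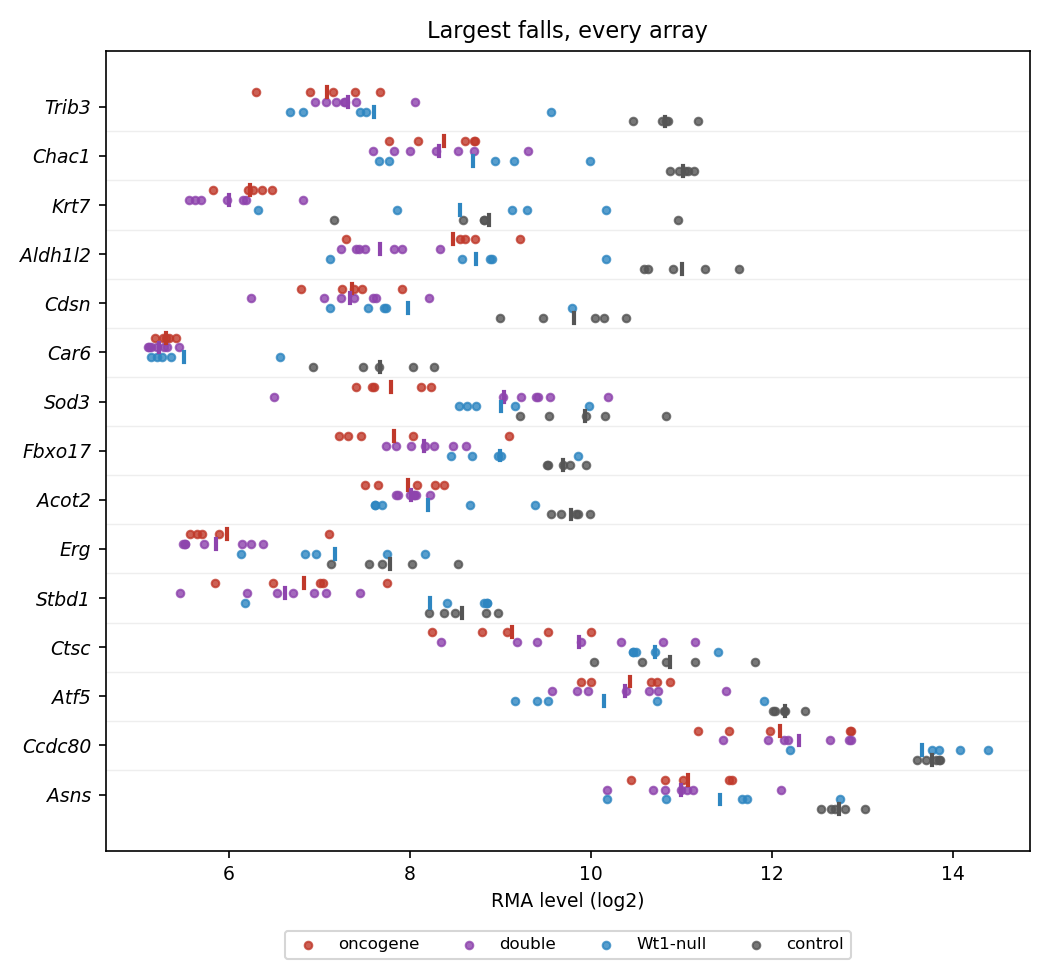
RMA log2 level (horizontal) of the 15 largest falls (rows) in every oncogene, double, Wt1-null and control array; each point is 1 array and each bar a group mean. Oncogene points lie to the left of all control points in each row; for Trib3, Chac1 and Car6 the double and Wt1-null means lie near the oncogene mean.

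Further large falls lay outside these lists. Car6, a secreted carbonic anhydrase, had the smallest p of all genes. It read 5.41, 5.34, 5.19, 5.31 and 5.27 in oncogene arrays, against 8.26, 8.04, 7.66, 6.93 and 7.48 in control arrays, a difference of -2.37 ± 0.23 (SE; adjusted p = 3.02e-05). The oncogene arrays were within 0.23 of each other and just above background. The keratin Krt7 and corneodesmosin (Cdsn), both of epithelia, averaged 6.23 ± 0.25 and 7.36 ± 0.40 in oncogene arrays, against 8.87 ± 1.36 and 9.81 ± 0.57 in control arrays (SD, n = 5 each). They were the only called genes of 20 epithelial and keratin markers, whose summed level is given above and whose part in the result was not tested. The extracellular superoxide dismutase Sod3 differed by -2.15, the mitochondrial thioesterase Acot2 by -1.81, the ETS factor Erg by -1.80, the cathepsin Ctsc by -1.75 and the secreted matrix protein Ccdc80 by -1.68.

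Several of these calls depend on single arrays. Without control replicate 2, Krt7 (adjusted p = 0.07), Stbd1 (0.121) and Ctsc (0.115) were no longer called, and Sod3 was not called without control replicate 3 (0.0847) nor Ccdc80 without oncogene replicate 3 (0.0606). Each call was also lost without other arrays: 3 for Krt7, 15 for Stbd1, 11 for Ctsc, 4 for Sod3 and 3 for Ccdc80. For Acot2 a second probe set gave -0.33, for Erg -0.38 and for Ctsc -0.28 and -0.18. Ccdc80 and Sod3 kept most of their size on a second probe set (-2.15 and -1.73). Larger in size than several of these, but left out of the 15 because an oncogene array lay above a control array, were the gap junction protein Gjb2 (-3.53) and the neurotrophic factor Artn (-1.94).

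Most other lists held few called genes, though in several the share called was above that of all genes. No gene was called in 17 of the 43 lists, whose medians lay between -0.20 and 0.54. Mitosis (26 genes, median 0.02, which turned to -0.04 with median centring and -0.27 with the replicate block), contractile and cytoskeletal genes (25, -0.14), CDK inhibitors and p53 targets (26, 0.07), interferon response (28, 0.27) and HOX genes (30, 0.12) were among them. In the contractile list calponin 1 (Cnn1) read 9.22, 10.42, 9.68, 10.41 and 10.68 in oncogene arrays, against 12.15, 13.14, 12.58, 12.34 and 11.07 in control arrays, without overlap but short of the threshold (-2.18, adjusted p = 0.0574). The summed level of 20 muscle markers was 10.91 to 11.82 in oncogene and 11.29 to 13.34 in control arrays. DNA replication (28 genes, median 0.21, -0.07 with the replicate block) had 1 call, E2f2 (0.45), whose control mean lay at background and whose call ended without control replicate 4 (adjusted p = 0.0721) and 5 other arrays. The cholesterol carrier Npc2 (0.59) was the only call among 22 lysosomal genes, and the kinase Pfkfb4 (0.67) and the glucose transporter Slc2a3 (1.62) the only ones among 23 glycolysis and hypoxia genes. Further probe sets of Slc2a3 gave 1.36, -0.16 and -0.02. Of the fibrillar and network collagens Col18a1 (1.90) and Col6a3 (1.18) were called, of the matrix glycoproteins Ccn4 (-1.30) and Loxl4 (-0.85), and of the NRF2 and glutathione genes, besides Sod3 and Slc7a11, the glutathione reductase Gsr (-1.07). The calls of Col6a3, Ccn4 and Loxl4 ended without control replicate 2 (adjusted p = 0.149, 0.0998 and 0.13), those of Slc2a3 and Col18a1 without control replicate 4 (0.13 and 0.0906) and that of Gsr without oncogene replicate 5 (0.105), each also without 5 to 16 other arrays. In all, 68 of the 795 list genes measured were called, 36 higher and 32 lower, beside 2.04% of all genes. The lists were chosen with earlier results of these data known, so this count is no test of them. A further 303 called genes stood on no list.

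The side comparison of double with Wt1-null arrays used none of the oncogene or control arrays, and all its cells had received Cre. It was set out with and without Wt1-null replicate 2, the near copy of a double array. Of the 240 genes called higher in oncogene against control arrays, 220 were also higher in double than in Wt1-null arrays (91.7%, against 58.0% of all genes), and 217 (90.4%, against 56.2%) without Wt1-null replicate 2, with a median of 0.57. Of the 131 called lower, 111 were also lower (84.7%, against 42.0% of all genes), and 113 (86.3%, against 43.8%) without Wt1-null replicate 2, with a median of -0.38. With all arrays 15 genes were called in the side comparison itself (0.0824%), 10 higher and 5 lower, of which 6 and 3 were also called in the same direction between oncogene and control arrays. Without Wt1-null replicate 2 the side comparison called 589 genes higher (3.24%) and 336 lower (1.85%), of which 90 and 38 were also called in the same direction, 37.5% of the 240 and 29.0% of the 131. Of the 4 Wt1-null arrays then left, replicates 3 and 4 were nearly identical and may not be independent.

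**Figure D5:**
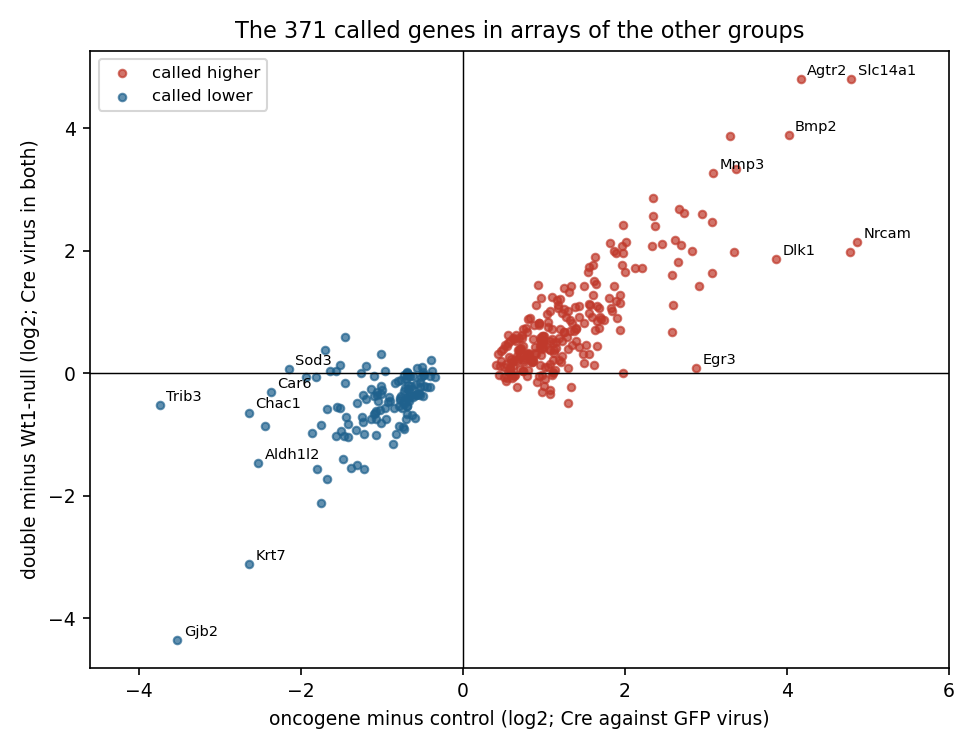
The 371 called genes by their log2 difference between oncogene and control arrays (horizontal) and between double and Wt1-null arrays without Wt1-null replicate 2 (vertical), 1 point a gene, red where called higher and blue where called lower. Slc14a1, Agtr2, Bmp2, Krt7 and Gjb2 lie far from the horizontal zero line, and Egr3, Trib3 and Sod3 near it.

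Individual genes differed in how they stood in the groups given Cre. Slc14a1 averaged 12.43 in oncogene, 12.10 in double, 8.35 in Wt1-null and 7.64 in control arrays. Agtr2, Bmp2, Cd34 and Krt7 showed large differences there too: between double and Wt1-null arrays they were 4.80, 3.88, 3.33 and -3.11 without Wt1-null replicate 2 (limma, adjusted p = 0.00023, 0.00136, 9.19e-05 and 0.00124). With all arrays they were 3.54, 3.07, 2.57 and -2.55, and none was called (adjusted p = 0.09, 0.081, 0.068 and 0.068). Slc14a1 differed there by 4.80 without Wt1-null replicate 2 (adjusted p = 0.000589) and by 3.75 with all arrays (adjusted p = 0.081). The calls of these 5 genes between groups that had both received Cre thus depend on leaving out that array. Egr3 averaged 9.19 in oncogene, 9.16 in double, 8.93 in Wt1-null and 6.30 in control arrays. Its difference between double and Wt1-null arrays was 0.23 with all arrays (limma, adjusted p = 0.86) and 0.08 without Wt1-null replicate 2 (0.96). Fosl1, Phlda1, Hmga2 and Csf1 likewise had means in Wt1-null arrays (10.37, 11.65, 13.58 and 12.50) nearer to the oncogene than to the control mean.

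On the ATF4 list the means of the oncogene, double and Wt1-null groups lay below the control mean, but Wt1-null replicate 1, at 10.27, lay close to the lowest control array, at 10.32. Its Trib3 and Chac1 levels were 9.56 and 9.99, against 6.68 to 7.52 and 7.66 to 9.15 in the other Wt1-null arrays. Trib3 averaged 7.08 in oncogene, 7.32 in double, 7.61 in Wt1-null and 10.82 in control arrays, and Chac1 8.38, 8.32, 8.70 and 11.02. The median of the list was -0.996 between oncogene and control arrays, -0.88 between Wt1-null and control arrays, a contrast that uses the same control arrays, and -0.24 between double and Wt1-null arrays without Wt1-null replicate 2 (-0.17 with it). Without that array 4 of the 35 genes were called lower and 1 higher. For the MAPK feedback inhibitors the median there was 0.68 without Wt1-null replicate 2 and 0.41 with it. Without it 11 of 13 lay above the Wt1-null arrays and 3 were called higher. The MAPK-driven transcription factors had a median of -0.14 with or without that array. Without it 9 of 23 lay above the Wt1-null arrays and 1 was called higher. For the other reported MAPK output genes the median was -0.04 without that array and -0.01 with it. Without it 7 of 17 lay above the Wt1-null arrays, 1 was called higher and 2 lower. For cholesterol synthesis and uptake the median was -0.76 without Wt1-null replicate 2 and -0.60 with it. Without it 19 of 20 genes were lower and 3 called. Averaged over the 13 MAPK feedback inhibitors, the level was 9.42 to 9.96 in oncogene and 9.06 to 10.21 in double arrays. It was 8.72 to 9.81 in Wt1-null and 8.06 to 8.87 in control arrays. Errfi1 averaged 12.75 in oncogene, 12.93 in double, 12.38 in Wt1-null and 10.81 in control arrays. Its difference between double and Wt1-null arrays was 0.71 without Wt1-null replicate 2 (limma, adjusted p = 0.0854) and 0.55 with it (0.285).

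Whether the oncogene difference itself depended on the Wt1 alleles was tested as the interaction, which also contains the change of virus, since GFP was used only in the controls. Of 18193 genes 2 passed (0.011%), Trib3 (3.46, adjusted p = 0.0167) and Car6 (2.09, adjusted p = 0.0167). For both, the difference between double and Wt1-null arrays was small (-0.29 and -0.28), against -3.74 and -2.37 between oncogene and control arrays. The count was 5 without Wt1-null replicate 1 and 0 without Wt1-null replicates 3, 4 or 5, control replicates 2 or 3, or oncogene replicate 6.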

How the data were processed

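RNA of 22 MEF samples, prepared with Trizol and RNeasy columns, was read on 1-colour Affymetrix whole-genome mouse arrays. The authors deposited log2 values made by RMA in Affymetrix Expression Console, per the submitters' processing notes; its version is not given in the sources used here. Their range was 3.29 to 15.14, and array medians lay between 6.23 and 6.33. Depth has no meaning for arrays, and their number limits the precision. Of 45101 probe sets, 64 were controls, 34945 had 1 gene in the platform annotation, 932 several and 9160 none listed; 34741 matched RefSeq (GRCm38.p6). The brightest probe set over all arrays stood for each of 18193 genes (9010 had several). All 22 arrays were fitted by group with limma 3.58.1 in R 4.3.3 without further normalization, p-values were adjusted by Benjamini-Hochberg over all genes, and adjusted p below 0.05 counted as called. The script was tested on simulated data. Named were the 15 largest rises and the 15 largest falls of called genes without overlapping arrays (clone names left out), the 10 smallest p, up to 4 called members per list by p (or the member of smallest p where none was called), Wt1 and Xist; other genes were chosen after their values were seen. The members and the 43 lists were chosen with earlier results of these data known. Alternatives covered probe set choice, filtering, normalization, variance model, array weights, blocks, Xist as covariate and left-out arrays. The oncogene is not reported here by name.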

Additional observations from a re-analysis of the deposited data

Results flagged for a closer look

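Among 184 combinations of a named gene and a group of 5 arrays, 9 held an array far from the others by Dixon's test, which chance gives in about 1 of 20 groups. In the oncogene group Gpnmb read 10.10 in replicate 3 (the others 11.04 to 11.28), Erg 7.11 in replicate 1 (5.57 to 5.90), Igfbp6 10.52 in replicate 5 (11.03 to 11.14), Aars 12.17 in replicate 4 (11.42 to 11.60) and Pdgfra 12.94 in replicate 1 (12.19 to 12.39). In the control group Spred2 read 9.38 in replicate 1 (8.54 to 8.68), Fosl1 8.73 in replicate 5 (9.52 to 9.79), Csf1 10.89 in replicate 2 (11.25 to 11.37) and Lss 10.80 in replicate 1 (10.52 to 10.58). The log2 difference between double and Wt1-null arrays was not that between oncogene and control arrays for Trib3 (3.46) and Car6 (2.09; limma interaction, adjusted p = 0.0167 each), a contrast that also contains the change of virus.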

How the results depend on the processing

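All 371 called genes kept their sign under every alternative that gave each gene 1 value, and none of the 73 named gene calls reversed in them. Further probe sets on their own did not always keep the sign. Of 232 called genes with one above background, 175 had the same sign on every such probe set. The excess of genes called higher turned into one of genes called lower with array weights, and the medians of the mitosis and DNA replication lists turned negative with the replicate block (-0.27 and -0.07). The count of called genes was 4417 with array weights (1982 higher, 2435 lower), 770 in the oncogene and control arrays alone (472 and 298), 658 without both arrays that stand apart (327 lower) and 201 with a log2 difference of at least 1 also required (140 and 61). It was 159 higher when the probe sets of a gene were averaged and 220 lower with every probe set on its own. Leaving out 1 array gave 139 to 683 called genes, 87 to 396 higher and 49 to 287 lower. The interaction count of 2 was 2748 with array weights, 1 with the set of accession numbers as a random block, 0 without both arrays that stand apart, with the nearly alike Wt1-null pair averaged or with Xist as a covariate, and 0 to 5 with 1 array left out. With the replicate block 308 genes were called (176 and 132) and 1 passed the interaction. Same-numbered oncogene and control arrays correlated in their deviations by 0.29, -0.10, 0.13 and 0.08 (replicates 1, 3, 4 and 5). Differently numbered pairs were not computed beside them. The array closest to oncogene replicates 3 and 4 was the same-numbered double array (r = 0.9902 and 0.9795), but not so for replicates 1, 5 and 6. Whether same-numbered arrays share more than a number was not tested. Of 73 named calls, 41 held without any single array; leaving out control replicate 2, 3 or 4 ended 31, 29 or 26 of them, and oncogene replicate 5, 6, 4 or 3 ended 27, 22, 18 or 17. The cause of these shifts was not tested. The interaction could not be fitted in the oncogene and control arrays alone or within 1 set of accession numbers. Signal over background limits the 2925 genes at background in both groups.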

Other observations

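Other cell surface and signalling genes moved that no list held; they were chosen after their values were seen. Of 11 non-clustered protocadherins, homophilic adhesion molecules, 9 lay above and 2 below the control (median log2 difference 0.49) and 5 were called higher (against 1.32% of all genes; the family was chosen for its values), among them Pcdh17 (2.70), Pcdh20 (2.59), Pcdh9 (1.83) and Pcdh7 (1.71). Pcdh9 averaged 10.54 ± 0.19 in oncogene and 8.71 ± 0.34 in control arrays (SD, n = 5 each). Nr2f1, a nuclear receptor, rose by 2.61, the leukocyte adhesion molecule Icam1 by 2.35, the pseudokinase Trib2 by 1.94 and the HGF receptor Met by 1.90. Icam1 differed by 2.86 between double and Wt1-null arrays without Wt1-null replicate 2 (limma, adjusted p = 1.34e-05). That array read 9.52, and with all arrays the means of Icam1 were 9.56 in double and 7.27 in Wt1-null arrays.

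Among falls, the connexin Gjb2 read 6.91, 6.08, 6.39, 9.10 and 7.36 in oncogene arrays, against 11.27, 11.80, 11.42, 10.49 and 8.49 in control arrays. Oncogene replicate 5 lay above control replicate 5, and the difference was -3.53 ± 0.82 SE (limma, adjusted p = 0.0267). Between double and Wt1-null arrays it was -4.35 without Wt1-null replicate 2. That array read 6.86, and with all arrays the means of Gjb2 were 6.66 in double and 10.18 in Wt1-null arrays. Kdelr3, which returns proteins to the endoplasmic reticulum, averaged 11.03 ± 0.19 in oncogene and 12.59 ± 0.15 in control arrays (SD, n = 5 each), a difference of -1.56.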
